A study of Rattus norvegicus with 20 samples.

Results

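The loci described here are the rows of a rat gene count table whose identifiers start with XLOC, in place of an Ensembl gene identifier. All rows with that prefix were taken, without reference to their values, which gave 400 loci of 24160 rows. The other 23760 rows carry Ensembl identifiers and serve as the comparison. RNA sequencing (RNA-seq) was performed on the brain and the left ventricle (LV) of rats in a study of stress cardiomyopathy (SCM), a heart muscle disorder that follows severe stress. The animals were male Sprague-Dawley rats, an outbred laboratory stock, of 250 to 300 g. Immobilization, given as 6 hours across 7 days, was applied to the 5 SCM rats, and the other 5 rats were normal controls. Each rat gave 1 brain and 1 LV library, 20 libraries in all. No transgene or knockout is named for either group. The description of the model names ventricle tissue without a side, the sample labels name the left ventricle, and no brain region or age is given.

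XLOC identifiers are of the kind that transcript assembly and merging programs give to a numbered locus where sequenced reads form a transcript. Loci that a reference annotation does not name can be noncoding RNAs, extensions of known genes, or genes that the annotation lacks. Long noncoding RNAs as a class are known for low levels and for expression restricted to few tissues, and the brain is known for a large repertoire of them. The table gives no position, length or sequence for these loci, so which of these classes a locus belongs to was not analysed here. The numbers in the identifiers ran from 130 to 49589.

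Total counts were similar in both tissues, at 22386526 to 35988591 in the brain and 25390349 to 36251990 in the LV. The factors of TMM scaling, which adjusts libraries by their typical row, were 1.22 to 1.38 in the brain and 0.698 to 0.809 in the LV. At equal totals a typical row thus had more counts in the brain. Detection was not corrected for this, and its part in the numbers detected was not tested. Levels are given as CPM, the counts of a locus scaled to a common library total. CPM is not corrected for length, so levels of different loci compare reads and not molecules. In the smallest library 3 counts were worth 0.134 CPM in the brain and 0.118 CPM in the LV, and this was taken as the lowest level that the depth can show. A locus was taken as detected in a tissue where more than 3 counts were found in at least 5 of its 10 libraries.

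More of the XLOC loci were detected in the brain than in the LV. The brain had 290 of the 400 loci (72.5%) and the LV had 218 (54.5%). Ensembl rows were detected at a similar share in the brain, 72.0%, and at a higher share in the LV, 63.4%. This order depended on the threshold. With any count in any library, XLOC loci stood above Ensembl rows in both tissues, at 94.75% against 92.5% in the brain and 89.0% against 83.7% in the LV. With at least 10 counts in 5 libraries they stood below in both, at 61.0% against 66.6% and 42.5% against 58.2%. Whether the loci were assembled from these libraries is not given. If they were, a count in some library was fixed in advance, so the shares with any count give no support to a difference. In 183 loci detection held in both tissues, in 107 in the brain only and in 35 in the LV only, and 75 were detected in neither. Single libraries had 273 to 293 loci over 3 counts in the brain and 199 to 227 in the LV, so that the ranges of the tissues did not overlap. Over 3 counts were found in every library of the tissue for 204 loci in the brain and for 136 in the LV. No count was found in any library of the tissue for 21 loci in the brain and for 44 in the LV, and 2 loci had no count in any of the 20 libraries.

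Where they were detected, XLOC loci were mostly low. The median level of a detected locus was 1.49 CPM in the brain and 1.05 CPM in the LV, against 18.3 and 11.7 CPM for detected Ensembl rows. A level under 1 CPM was found for 113 detected loci in the brain (39.0%, against 15.4% of Ensembl rows) and for 106 in the LV (48.6%, against 17.9%). At the other end, 52 loci in the brain (17.9%) and 31 in the LV (14.2%) reached 10 CPM, where 60.9% and 53.0% of Ensembl rows did. A level of 100 CPM was reached by 5 loci in each tissue.

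A few loci held most of the XLOC counts. XLOC loci took 0.472% ± 0.0307 (SD, n = 5) of all counts in the brain of control rats and 0.439% ± 0.0644 (SD, n = 5) in the brain of SCM rats. In the LV they took 0.185% ± 0.0464 (SD, n = 5) in control rats and 0.156% ± 0.0177 (SD, n = 5) in SCM rats. The differences between control and SCM were smaller than the larger of the SDs in each tissue, where all XLOC loci were counted. In the brain, XLOC_038662 alone held 39.3% of the XLOC counts, and the 10 most abundant loci held 65.7%. In the LV, XLOC_014367 held 21.9% and the 10 most abundant held 67.0%. Without these single loci the shares of all counts were, for the brain, 0.279% ± 0.0124 (SD, n = 5) in control rats and 0.271% ± 0.0230 (SD, n = 5) in SCM rats. For the LV they were 0.139% ± 0.00639 (SD, n = 5) in control rats and 0.132% ± 0.00457 (SD, n = 5) in SCM rats. The LV difference was then slightly larger than the larger SD, and the brain difference remained smaller. The LV libraries still overlapped, at 0.131% to 0.147% in control rats and 0.124% to 0.135% in SCM rats. These shares were not tested.

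**Figure D1:**
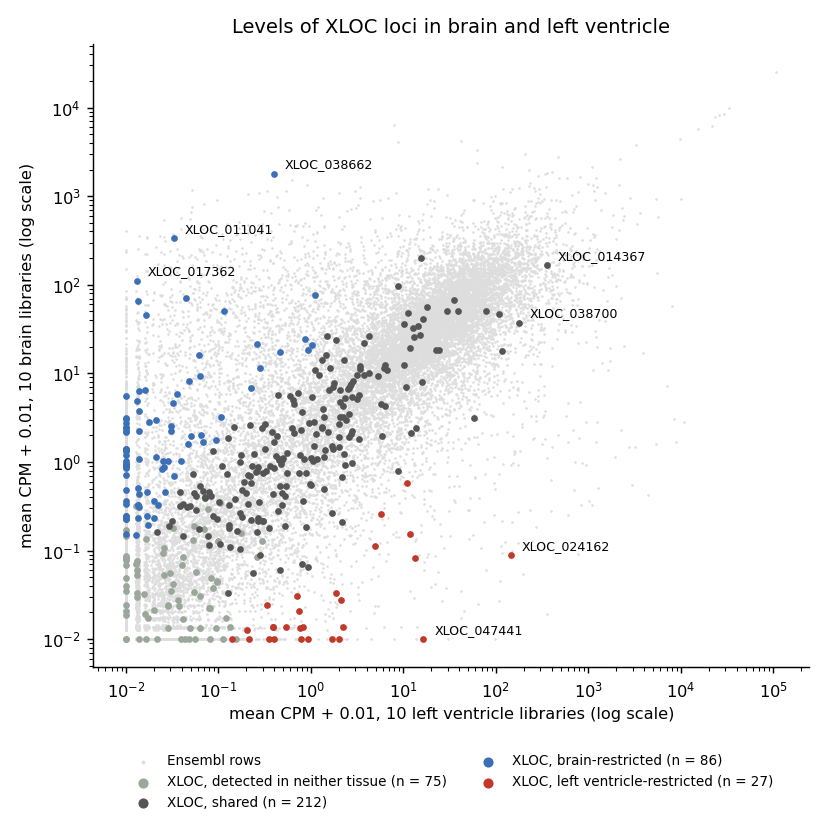
Mean CPM of each XLOC locus over the 10 LV libraries (x axis) and the 10 brain libraries (y axis), both on log scales after adding 0.01, with Ensembl rows as small grey points. Brain-restricted loci (86) lie along the upper left and LV-restricted loci (27) along the lower right, and most XLOC loci lie at lower levels than most Ensembl rows.

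Tissue restriction was described by the brain share of a row, the mean CPM in the brain divided by the sum of the brain and LV means. A row was taken as brain-restricted at a share of 0.95 or more and as LV-restricted at 0.05 or less. Among the 325 XLOC loci detected in at least 1 tissue, 86 (26.5%) were brain-restricted and 27 (8.31%) were LV-restricted, 34.8% together. Of 17638 detected Ensembl rows, 16.1% were brain-restricted and 2.31% LV-restricted, 18.5% together. The median brain share was 0.745 for XLOC loci and 0.666 for Ensembl rows, so that both leaned to the brain on this scale. TMM scaling, which adjusts libraries by their typical row, moved the median log2 ratio of brain to LV over all detected rows by -0.78, and with it 74 XLOC loci (22.8%) were brain-restricted and 31 (9.54%) LV-restricted, against 13.6% and 3.37% of Ensembl rows. The median brain share on that scale was 0.627 for XLOC loci and 0.537 for Ensembl rows. These shares carry no test, since loci are not replicates.

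The restriction was also set out by level, because low loci are counted less precisely. Rows were grouped by their mean CPM in the tissue where it was higher. Under 1 CPM, 24.0% of XLOC loci and 25.3% of Ensembl rows were brain-restricted. Between 1 and 10 CPM the shares were 29.9% and 20.1%, and at 10 CPM or more they were 24.2% and 12.6%. The LV-restricted shares of XLOC loci were 11.6%, 5.22% and 8.06% in the same order, against 3.43%, 2.47% and 2.0% of Ensembl rows. The higher share of LV-restricted loci was thus present at all 3 levels, and that of brain-restricted loci from 1 CPM upward. The restriction was also found separately in control rats and in SCM rats, which are different animals. In the control rats 85 loci were brain-restricted and in the SCM rats 89, with 77 shared between the lists (90.6% and 86.5% of them). For the LV the numbers were 28 and 26, with 24 shared (85.7% and 92.3%). Ensembl lists shared 91.7% and 85.4% for the brain and 76.0% and 82.9% for the LV.

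**Figure D2:**
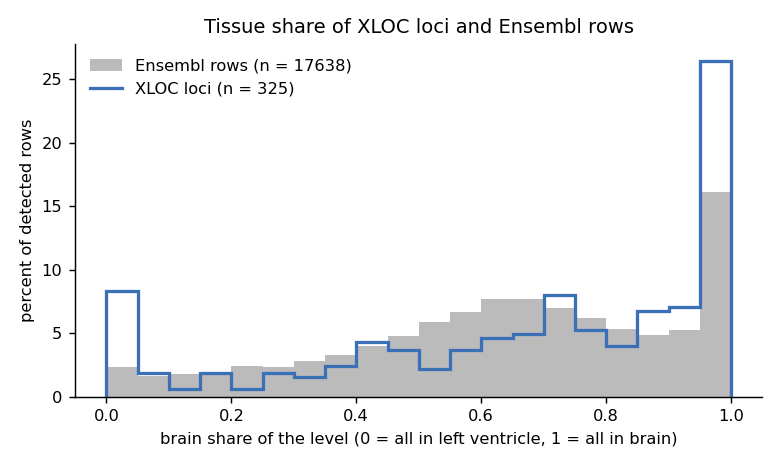
Distribution of the brain share of the level (x axis, from 0 for a row found in the LV alone to 1 for a row found in the brain alone) as a percent of detected rows (y axis), for 325 XLOC loci (line) and 17638 Ensembl rows (grey). The line stands above the grey bars at both ends, with 26.5% against 16.1% in the bin next to 1 and 8.31% against 2.31% in the bin next to 0.

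The brain and the LV were compared by edgeR's quasi-likelihood test within the control rats and again within the SCM rats, with the rat as a block, since both tissues came from the same animals. A row was called where its adjusted p-value was under 0.05 and its log2 fold change exceeded 2 in either direction. In the control rats 227 XLOC loci had enough counts to be tested, and 108 of them (47.6%) were called, where 34.0% of all rows tested were. Of these, 76 were higher in the brain (33.5%, against 21.5% of all rows) and 32 were higher in the LV (14.1%, against 12.5%). In the SCM rats 111 of 223 loci (49.8%) were called, against 34.5% of all rows, 81 of them higher in the brain (36.3%, against 22.4%) and 30 higher in the LV (13.5%, against 12.1%). Without the fold change limit the order was the opposite. In control rats 168 of 227 loci passed (74.0%, against 79.7% of all rows), and in SCM rats 152 of 223 (68.2%, against 79.4%). A row could enter this test through the tissue where it was high alone, so these shares give no support to a difference from all rows. Loci nearly without counts in a tissue entered through the other tissue alone, so their adjusted p-values add no support. In all, 92 loci were called in both sets of rats, 85.2% of the control calls and 82.9% of the SCM calls, where the shares for Ensembl rows were 88.8% and 88.3%. All 92 had the same direction in both sets, 67 toward the brain and 25 toward the LV, as did all 4708 Ensembl rows called in both. Every brain library lay above every LV library in 66 of the 67 (98.5%, against 99.4% of such Ensembl rows), and every LV library above every brain library in 19 of the 25 (76.0%, against 87.1%). In bulk tissue, fewer cells of a type and less RNA per cell cannot be told apart.

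XLOC_038662 had the highest level of all XLOC loci in the brain. Its control brain libraries were at 2216, 1740, 1599, 1773 and 2316 CPM and its SCM brain libraries at 1798, 879, 1778, 2070 and 1851 CPM. The 10 LV libraries were between 0.0302 and 0.839 CPM, so the tissues did not overlap. The log2 fold change of brain against LV was 11.32 with a standard error of 0.37 in control rats (adjusted p = 7.18e-08, edgeR), and 11.53 with a standard error of 0.37 in SCM rats (adjusted p = 1.14e-08, edgeR).

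XLOC_011041 followed, at 325 to 367 CPM in the control brain and 191 to 394 CPM in the SCM brain. In the LV it had 6 counts over the 5 control libraries and 1 count over the 5 SCM libraries. The ratio of brain to LV was 9128 in control rats, with a 95% counting interval of 4194 to 24875. The control LV counts came from rats 1 and 2. The log2 fold change of brain against LV was 12.24 in control rats and 13.39 without control rat 2. XLOC_020691, with 126 to 233 CPM over the brain libraries, was present in the LV as well, at 11 to 25.2 CPM. It was higher in the brain by a log2 fold change of 2.69 in control rats (SE 0.12, adjusted p = 2.88e-07, edgeR) and of 3.07 in SCM rats (SE 0.18, adjusted p = 4.27e-07, edgeR).

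XLOC_017362 and XLOC_037732 were found in the brain and were at or next to 0 counts in the LV. XLOC_017362 was at 99.8, 111, 110, 117 and 103 CPM in the control brain and at 113, 129, 103, 105 and 125 CPM in the SCM brain. In the LV it had no count in any control library and 1 count in 1 SCM library. Against the limit of 3 counts over the control group, it was at least 5662-fold higher in the control brain (adjusted p = 6.80e-06, edgeR). In SCM rats, where the 1 LV count gives a ratio, the ratio was 16722 with a 95% counting interval of 3001 to 660522. XLOC_037732 ran from 41.6 to 77.6 CPM in the brain, with no count in the control LV and 1 count in the SCM LV, and was at least 3266-fold higher in the control brain (adjusted p = 1.22e-05, edgeR). The counting intervals and limits given for single loci cover counting error only.

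In the LV the highest level belonged to XLOC_014367, with a wide spread between rats. Its control LV libraries were at 1326, 187, 225, 381 and 194 CPM and its SCM LV libraries at 224, 146, 133, 509 and 206 CPM. Its brain libraries ran from 57.9 to 310 CPM in control rats and from 69.2 to 355 CPM in SCM rats, so that the tissues overlapped. It was lower in the brain than in the LV, with a log2 fold change of -1.93 in control rats (SE 0.62, adjusted p = 0.0205, edgeR) and of -1.37 in SCM rats (SE 0.50, adjusted p = 0.0294, edgeR), both within the fold change limit of 2. One control LV library held 48085 of its 78205 control LV counts. That rat was at 1326 CPM in the LV and 57.9 CPM in the brain. The other control rats were at 187, 225, 381 and 194 CPM in the LV and at 77.6, 194, 310 and 152 CPM in the brain. The control fold change thus rests in large part on 1 rat.

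XLOC_038700 was far steadier, with 145 to 199 CPM in the LV libraries and 32.1 to 43.4 CPM in the brain libraries. It was higher in the LV in both sets of rats, with log2 fold changes of brain against LV of -3.01 (SE 0.09, adjusted p = 4.70e-08, edgeR) and -3.11 (SE 0.09, adjusted p = 6.60e-09, edgeR). XLOC_024162 was at 137, 156, 150, 83.5 and 141 CPM in the control LV and at 175, 149, 172, 119 and 169 CPM in the SCM LV. It was nearly absent from the brain, with 6 counts over the control libraries and 17 over the SCM libraries. Its ratio of LV to brain was 3147 in control rats, with a 95% counting interval of 1446 to 8577, and 1302 in SCM rats, with an interval of 813 to 2235. The log2 fold change of brain against LV was -12.24 in control rats and -13.27 without control rat 3. In SCM rats it was -11.13, and -11.79 without SCM rat 2.

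XLOC_047441 was found in the LV alone. It was at 17.2, 22.9, 15.8, 17.6 and 14.3 CPM in the control LV and at 11.4, 14.6, 18.6, 16.2 and 16.0 CPM in the SCM LV, with 0 counts in each of the 10 brain libraries. Against the limit of 3 counts over the brain libraries of the group, it was at least 828-fold higher in the LV of control rats (adjusted p = 2.70e-05, edgeR). In SCM rats it was at least 737-fold higher in the LV on the same limit (adjusted p = 5.67e-06, edgeR). XLOC_012399 was lower, at 1.19 to 3.56 CPM in the control LV and 1.17 to 3.31 CPM in the SCM LV. It had 0 counts in the control brain, and was at least 124-fold higher in the control LV on the same limit (adjusted p = 0.000606, edgeR). In the SCM brain 1 count was found.

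**Figure D3:**
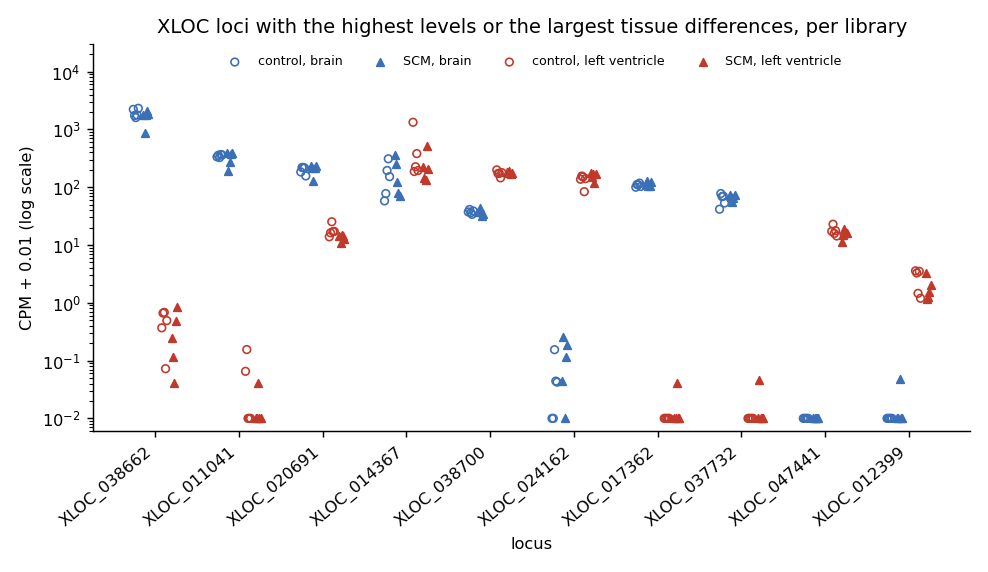
CPM of 10 XLOC loci (x axis) in each of the 20 libraries (y axis, log scale after adding 0.01), with brain in blue, LV in red, control rats as open circles and SCM rats as triangles. The tissues are apart for each locus but XLOC_014367, and the red points of XLOC_017362 and XLOC_037732 and the blue points of XLOC_047441 and XLOC_012399 lie at or next to 0 counts.

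The effect of stress on XLOC loci in the LV was seen in few of them. With the same edgeR test of SCM against control, 168 XLOC loci had enough counts to be tested, and 6 of them (3.57%) had an adjusted p-value under 0.05, where 5.21% of all 13954 rows did. Of these loci, 3 were higher in SCM (1.79%, against 2.33% of all rows) and 3 were lower (1.79%, against 2.88%). With RLE in place of TMM scaling, 3 were higher and 1 was lower (2.38% in all, against 5.15% of all rows), and with DESeq2 5 were higher and 9 lower (8.33%, against 11.8%). With limma-voom 1 was higher and 2 were lower (1.79%, against 4.71%). When the fold change limit of the tissue comparison was added, 2 loci passed by edgeR (1.19%, against 0.229% of all rows), XLOC_013648 and XLOC_024851, both higher. By limma-voom 0 loci passed both limits, against 0.136% of all rows. XLOC_024851 had enough counts to be tested only through its SCM libraries, where it was high, so the share of 1.19%, like any other share that counts this locus, gives no support to a difference from all rows. An unadjusted p-value under 0.05 was found for 26 loci (15.5%, against 23.2% of all rows). The median log2 fold change was -0.10 over the 168 loci and -0.01 over all rows, with 70 loci above 0 and 98 below.

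The loci were also set beside Ensembl rows of like level. The adjusted p-value was under 0.05 for 1 of 56 XLOC loci under 1 CPM (XLOC_024851, 1.79% against 0.916% of Ensembl rows), for 3 of 81 between 1 and 10 CPM (3.70%, against 3.59%) and for 2 of 31 at 10 CPM or more (6.45%, against 6.90%). The median coefficient of variation over the control LV libraries was 51.3%, 28.7% and 14.8% for XLOC loci in these 3 groups, and 50.04%, 25.1% and 13.0% for Ensembl rows.

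XLOC_013648 had the lowest adjusted p-value of the XLOC loci in the LV. It was at 1.19, 0.799, 0.773, 1.03 and 1.67 CPM in control rats and at 11.4, 2.24, 3.32, 3.13 and 1.94 CPM in SCM rats. All SCM libraries lay above all control libraries, and 1 SCM library stood far above the rest. The change was 2.13 on the log2 scale (SE 0.49, adjusted p = 0.0313, edgeR), and without that SCM rat it was 1.38. In the brain the same locus was at 1.24 to 2.98 CPM in control rats and at 1.36 to 2.46 CPM in SCM rats, with a log2 fold change of -0.25 (SE 0.28, adjusted p = 0.713, edgeR). The difference of the stress effect between the tissues was 2.02 on the log2 scale (SE 0.59, adjusted p = 0.148, edgeR), so it did not pass the test.

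XLOC_024851, which had 1 to 11 counts per control LV library, had 16, 11, 16, 92 and 103 counts in the SCM LV libraries. The groups did not meet, since the highest control library was at 0.343 CPM and the lowest SCM library at 0.391 CPM. Most of its SCM counts came from 2 of the 5 rats. The change was 3.31 on the log2 scale (SE 0.81, adjusted p = 0.0383, edgeR), in a test that the locus entered only through the SCM libraries. Without SCM rat 5 it was 2.71, and over the fits that left out 1 rat the adjusted p-value ran from 0.0265 to 0.0971 (edgeR).

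XLOC_040827 was found in the LV and was all but absent from the brain, where no library had more than 6 counts. Its LV level was 9.21, 10.6, 6.52, 15.3 and 7.77 CPM in control rats and 20.2, 14.8, 16.4, 17.8 and 15.4 CPM in SCM rats. The groups overlapped, as 1 control library lay above the lowest SCM library. The change was 0.88 on the log2 scale (SE 0.22, adjusted p = 0.0420, edgeR), and the exact two-sided permutation test of log2(CPM + 0.5) gave p = 0.0159. The permutation p-value is unadjusted and comes from the libraries by which XLOC_040827 was picked, so it adds no support. In the edgeR test this locus had stood out among the LV-restricted loci. XLOC_040827 was the 1 LV-restricted locus called of 21 tested (4.76%, against 9.19% of LV-restricted Ensembl rows). The other 5 loci called in the LV were among the 141 loci tested that were restricted to neither tissue (3.55%, against 5.25% of such Ensembl rows). Of the brain-restricted loci, 0 of 6 tested in the LV were called, against 2.81% of such Ensembl rows, with 0 at an unadjusted p-value under 0.05 (edgeR).

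The 3 lower loci had smaller and tighter changes. XLOC_031354 was at 11.1, 13.0, 15.3, 8.48 and 8.89 CPM in the control LV and at 4.14, 5.89, 6.26, 6.23 and 8.12 CPM in the SCM LV. Its change was -0.77 on the log2 scale (SE 0.20, adjusted p = 0.0436, edgeR). It was a more abundant locus in the brain, at 73.8 to 118 CPM in control rats and 70.5 to 105 CPM in SCM rats, where its change was 0.01 on the log2 scale (SE 0.15.) The difference between tissues, -0.80 on the log2 scale, did not pass the interaction test (adjusted p = 0.128, edgeR).

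XLOC_006930 was at 18.6, 15.1, 14.6, 16.3 and 16.3 CPM in the control LV and at 9.10, 10.8, 10.1, 12.4 and 12.2 CPM in the SCM LV. Its change was -0.46 on the log2 scale (SE 0.12, adjusted p = 0.0486, edgeR). XLOC_032491 was at 10.5, 9.76, 11.3, 8.85 and 13.2 CPM in the control LV and at 6.73, 5.08, 7.68, 8.30 and 5.22 CPM in the SCM LV. Its change was -0.58 on the log2 scale (SE 0.15, adjusted p = 0.0496, edgeR). For each of the 3 lower loci all SCM libraries lay below all control libraries. Both XLOC_006930 and XLOC_032491 were lower in the brain than in the LV, at 1.34 to 3.78 CPM and at 0.389 to 1.04 CPM.

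**Figure D4:**
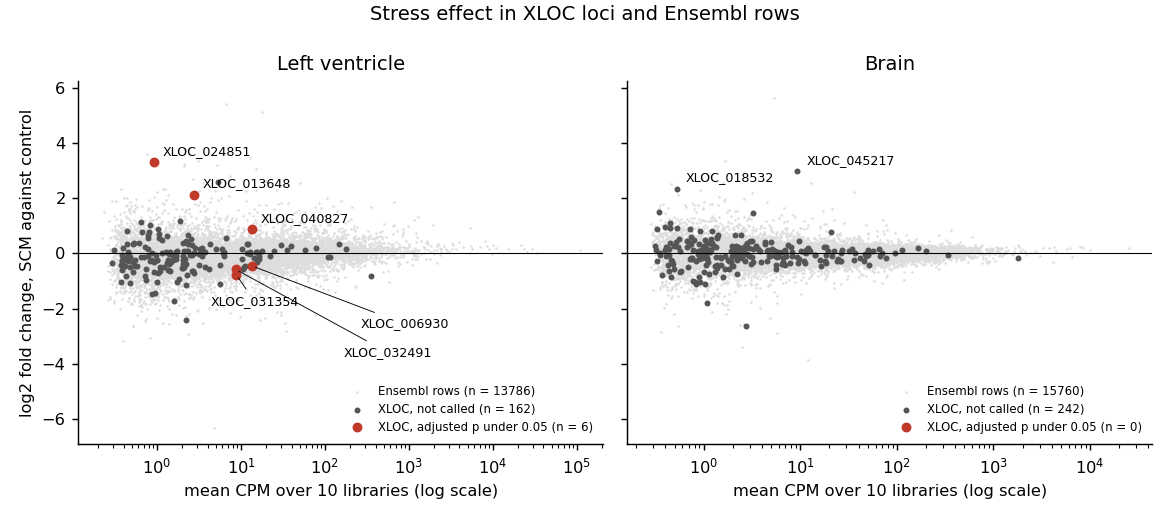
Log2 fold change of SCM against control (y axis) by mean CPM over the 10 libraries of the tissue (x axis, log scale) in the LV (left) and the brain (right). Grey points are Ensembl rows, dark points XLOC loci and red points the 6 XLOC loci with an adjusted p-value under 0.05 in the LV, with none in the brain.

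The 6 adjusted p-values lay close under 0.05, and each call was lost in some fits with fewer rats. When the 10 rats were left out in turn, XLOC_013648 lost an adjusted p-value under 0.05 in 4 of the 10 fits, XLOC_024851 in 6, XLOC_040827 in 8, XLOC_031354 in 7, XLOC_006930 in 10 and XLOC_032491 in 9. Without control rat 1, 2 or 3, 0 XLOC loci were called, while 2.04%, 3.91% and 2.05% of all rows were called in these fits. An unadjusted p-value under 0.05 (edgeR) was found for 28 of 174, 23 of 172 and 20 of 173 loci tested. Over all rows it was found for 2785 of 14081, 3045 of 14099 and 2739 of 14104, a larger share each time. The direction of each of the 6 was the same in all fits run. With 1 rat left out, the log2 fold change ran from -0.50 to -0.40 for XLOC_006930, from -0.67 to -0.51 for XLOC_032491, from -0.89 to -0.65 for XLOC_031354 and from 0.75 to 1.13 for XLOC_040827.

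Loci whose LV libraries did not overlap between the groups numbered 3 of the 168 tested toward higher levels in SCM (1.79%, against 1.4% of all rows) and 7 toward lower levels (4.17%, against 6.54%). The 3 higher ones were XLOC_013648, XLOC_024851, which was tested only through its high SCM libraries, and XLOC_037156. The last was at 0.772, 1.49, 0.605, 1.53 and 1.6 CPM in control rats and at 3.54, 1.81, 1.87, 3.01 and 2.33 CPM in SCM rats, with a log2 fold change of 1.18 and an adjusted p-value of 0.0649 (edgeR).

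A further 3 loci did not overlap but had too few counts to be tested. Among the 188 XLOC loci with counts in the LV that were not tested, 1 was higher in SCM (0.532%, against 0.159% of all such rows) and 2 were lower (1.06%, against 0.667%). XLOC_000312 had 10, 4, 3, 2 and 12 counts in the control LV libraries and 0 in each of the 5 SCM LV libraries. Against the limit of 3 counts over the SCM group it was at least 9.54-fold lower in SCM. In the brain it had 56 to 120 counts in all 10 libraries, at 2.36 to 4.19 CPM in control rats and 2.5 to 3.57 CPM in SCM rats, with a log2 fold change of -0.13 (SE 0.20, adjusted p = 0.796, edgeR). XLOC_043973 had 5 to 30 counts in the control LV and 0 to 4 in the SCM LV. XLOC_015196 had 1 to 6 counts in the control LV and 7 to 15 in the SCM LV. XLOC_037156 and these 3 loci were named after their values were seen.

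In the brain 242 XLOC loci were tested and 0 had an adjusted p-value under 0.05 (edgeR), where 0.175% of all 16002 rows did. An unadjusted p-value under 0.05 was found for 20 loci (8.26%, against 14.3% of all rows). DESeq2 called 1 locus, XLOC_018532 (0.413%, against 2.52% of all rows), and limma-voom called 0 (against 0.181%). XLOC_018532 had enough counts to be tested only through its SCM libraries, where it was high, so neither this call nor a share that counts it is support. The median log2 fold change was -0.01 over the 242 loci and 0.00 over all rows. In the brain the non-overlapping loci were 1 higher in SCM (0.413%, against 1.65% of all rows) and 2 lower (0.826%, against 2.04%), and the higher one was again XLOC_018532.

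XLOC_018532 had 5, 7, 8, 2 and 2 counts in the control brain and 24, 19, 21, 21 and 33 in the SCM brain. Its change was 2.35 on the log2 scale (SE 0.48), and it did not pass the edgeR test (adjusted p = 0.0890), which it entered only through the SCM libraries. In the LV it had 0 to 2 counts in control libraries and 1 to 6 in SCM libraries, too few to be tested. The 2 lower loci without overlap, both named after their values were seen, were XLOC_004825, at 1.85 to 2.90 CPM in control rats and 1.03 to 1.73 CPM in SCM rats (adjusted p = 0.289, edgeR), and XLOC_028537, at 0.943 to 1.95 CPM and 0.687 to 0.938 CPM (adjusted p = 0.268, edgeR).

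XLOC_045217 varied widely between rats of the same group. It was at 0.579, 0.628, 1.08, 0.956 and 7.38 CPM in the control brain and at 22.3, 1.11, 18.9, 1.07 and 39.2 CPM in the SCM brain. In the LV it was at 3.86, 0.109, 0.403, 3.18 and 0.353 CPM in control rats and at 16.1, 6.11, 0.544, 15.7 and 6.56 CPM in SCM rats. The groups overlapped in both tissues. On the log2 scale SCM differed from control by 2.98 in the brain (SE 0.98, adjusted p = 0.225, edgeR) and 2.58 in the LV (SE 0.92, adjusted p = 0.119, edgeR), so that neither passed the test. The brain value was 4.34 without control rat 5 and 2.36 without SCM rat 5. The exact two-sided permutation test, not adjusted for the number of loci, gave p = 0.0635 in the brain and p = 0.0397 in the LV. The locus was picked by its p-value in the brain of these same rats, so these values add no support.

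The loci with the smallest p-values toward lower levels in the SCM brain were XLOC_007352 and XLOC_022799, and neither passed the test. XLOC_007352 was at 1.33 to 2.41 CPM in control rats and 0.715 to 1.66 CPM in SCM rats, with a log2 fold change of -0.84 (SE 0.28, adjusted p = 0.225, edgeR). XLOC_022799 was at 26.0 to 33.4 CPM and 18.7 to 27.6 CPM, with a log2 fold change of -0.28 (SE 0.10, adjusted p = 0.231, edgeR).

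**Figure D5:**
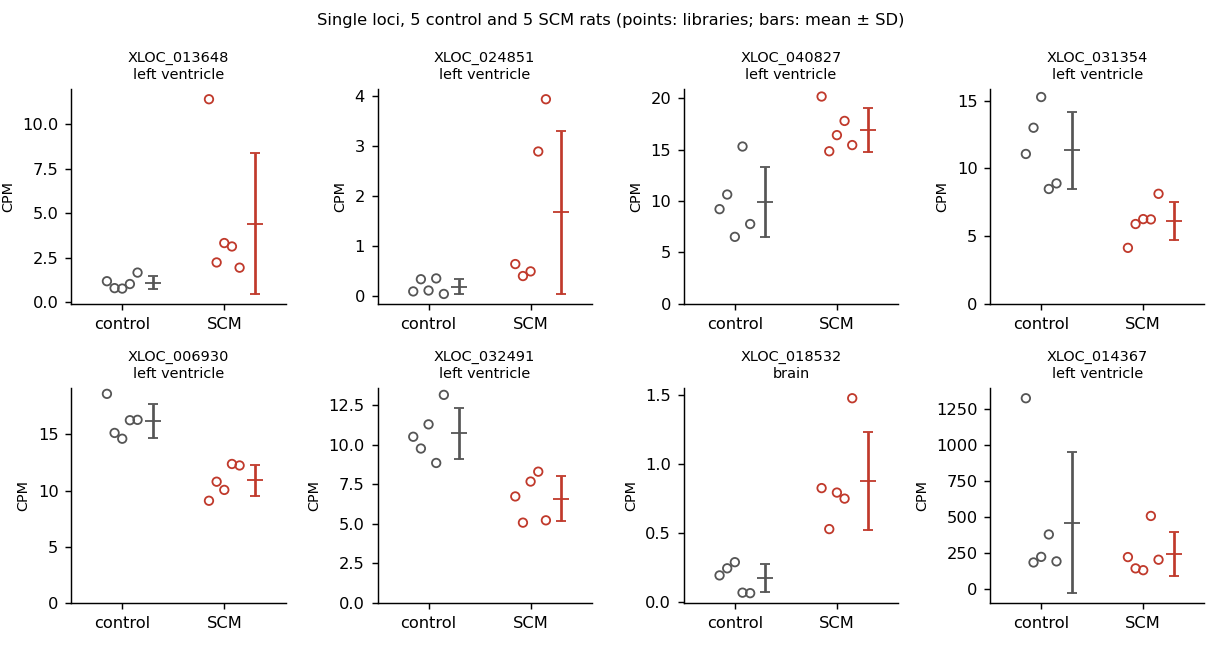
CPM (y axis) in the 5 control and 5 SCM libraries (points) with the mean ± SD (bars) for the 6 loci called in the LV, for XLOC_018532 in the brain and for XLOC_014367 in the LV. SCM points lie apart from control points in 6 of the 8 panels, overlap by 1 control library for XLOC_040827 and overlap widely for XLOC_014367, where 1 control library stands at 1326 CPM.

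Whether the stress effect differed between the tissues was tested as an interaction in 1 fit of the 20 libraries, again blocked by rat. Of 276 XLOC loci tested, 0 passed an adjusted p-value under 0.05 (edgeR), against 0.754% of all 16720 rows, and 21 had an unadjusted p-value under 0.05 (7.61%, against 13.9% of all rows). By limma-voom 1 locus passed (0.362%, against 0.981% of all rows), XLOC_000312, the locus with counts in the control LV and none in the SCM LV. By edgeR it had an adjusted p-value of 0.0808. For XLOC_040827 and XLOC_024851, which had too few brain counts to be tested within the brain, the interaction had adjusted p-values of 0.499 and 0.511 (edgeR).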

How the data were processed

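Raw read counts per gene or locus, without normalization, were deposited by the authors for 20 libraries made with the NEBNext Ultra RNA kit. The submitters' processing notes name HISAT2, StringTie, SAMtools and the build mRatBN7.2. The counting program, annotation and strand setting are not given in the sources used here. The set of loci, the lists and the tests were chosen with earlier results of these data known. Within the prefix, no row was left out for its values.

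Tests used the counts of the whole table and edgeR 4.0.16 under R 4.3.3 (TMM, filterByExpr with a minimum count of 10 and a minimum total of 15, quasi-likelihood test, Benjamini-Hochberg adjustment over all rows tested). The standard error is the absolute log2 fold change divided by the square root of F. Alternatives used DESeq2 1.42.0, limma 3.58.1 (voom), other scalings and filters, and leaving out each rat. The fits were tested on simulated data.

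The brain and LV of 1 rat share a name in the labels, and the deviations of such pairs from their group means correlated at 0.0656 to 0.167 across rows, so the rat was a block between tissues. Replicate libraries differed by at least 11.6 times the sampling variance. P-values measure the spread between these rats.

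Loci were named by a rule: the 3 with the highest median CPM in each tissue; up to 5 in each direction with an adjusted p-value under 0.05 for stress, or, with none, the 2 with the smallest p-values; up to 3 in each direction called between tissues in both sets of rats without overlap; up to 3 passing the interaction test; and members of counts of 5 or fewer. Identifiers were not paired with gene symbols, since the gene list used held no Ensembl identifiers, so tissue labels were not checked against marker genes.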

Additional observations from a re-analysis of the deposited data

Results flagged for a closer look

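Each group of 5 libraries was searched for 1 library far from the other 4, in the XLOC share of counts and in the levels of the named loci. Of 77 groups, 17 had such a library. Chance flags about 1 in 20 groups of well-measured values, but that rate does not hold near 0 counts, and 5 of the 17 rest on 4 to 6 counts in the library that stands apart. The groups are not independent, since several loci share a library and XLOC_014367 enters the share.

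In the control LV, library 1 had 0.268% of its counts in XLOC loci, against 0.160% to 0.169% in the others. The same library was at 1326 CPM for XLOC_014367, against 187 to 381 CPM. XLOC_020691 was at 25.2 CPM in library 3 and at 13.8 to 17.1 CPM in the others, and XLOC_024162 was at 83.5 CPM in library 4, below the others at 137 to 156 CPM.

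In the SCM LV, XLOC_013648 was at 11.4 CPM in library 1, against 1.94 to 3.32 CPM. XLOC_018532 was at 0.236 CPM in the same library, which is 6 counts, against 0.0302 to 0.0710 CPM. XLOC_014367 was at 509 CPM in library 4, against 133 to 224 CPM.

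In the SCM brain, library 2 had 879 CPM of XLOC_038662, against 1778 to 2070 CPM. Library 3 was low for XLOC_020691, at 126 CPM against 215 to 233 CPM, and for XLOC_031354, at 70.5 CPM against 97.7 to 105 CPM. In library 5 both XLOC_024851 and XLOC_040827 were at 0.268 CPM, which is 6 counts each, against 0 to 0.0687 CPM and 0 CPM.

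In the control brain, XLOC_024162 was at 0.144 CPM (4 counts) and XLOC_024851 at 0.180 CPM (5 counts) in library 3, against 0 to 0.0342 CPM and 0 to 0.0323 CPM. XLOC_006930 was at 3.78 CPM in library 1, against 1.99 to 2.46 CPM. XLOC_045217 was at 7.38 CPM in library 5, against 0.579 to 1.08 CPM. XLOC_007352 was at 1.33 CPM in library 4, against 2.16 to 2.41 CPM.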

How the results depend on the processing

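The number of XLOC loci called between the tissues was within 1.5 times the reported number under each alternative run, as were the numbers restricted to 1 tissue. By direction, the LV-higher loci moved further with no filter, to 50 from 32 in control rats and to 46 from 30 in SCM rats. The number detected in the LV was 356 with any count in any library (89.0%, against 83.7% of Ensembl rows), and 218 by the threshold used (54.5%, against 63.4%). In the LV, 2 loci passed both limits for stress (1.19%, against 0.229% of all rows). The number was 0 with limma-voom (against 0.136%) and 5 with no filter (3 higher and 2 lower, 1.40% against 0.262%). Where every library had to reach 10 counts it was 1 (0.926%, against 0.153%). Where the 20 libraries were fitted together it was 7 (3 higher and 4 lower, 2.54% against 0.993%). With each rat left out in turn it was 0 to 3 (0% to 1.72%, against 0.128% to 0.454%). It was 0 without control rat 1, 2 or 3 (against 0.128%, 0.255% and 0.170%). Without SCM rat 1, 4 or 5 it was 1 (0.581%, 0.578% and 0.578%, against 0.169%, 0.206% and 0.148%). With the adjusted p-value alone, 6 loci passed. That number was 14 with DESeq2 (5 higher and 9 lower, 8.33% of loci tested against 11.8% of all rows) and 3 with limma-voom (1.79%, against 4.71%). It was 16 where the 20 libraries were fitted together (6 higher and 10 lower, 5.80% against 10.7%). With each rat left out it was 0 to 5 (0% to 2.91%, against 2.04% to 7.07%). It was also 0 without control rat 1, 2 or 3 (against 2.04%, 3.91% and 2.05%). Without SCM rat 1 or 2 it was 3 (1.74% and 1.72%, against 2.88% and 2.35%). Without SCM rat 4 or 5 it was 2 (1.16% each, against 2.92% and 2.18%). In the brain, where 0 loci passed, DESeq2 gave 1 with or without the fold change limit (0.413%, against 0.0625% and 2.52% of all rows), XLOC_018532, which was tested only through its high SCM libraries. For the interaction, 0 loci passed. Limma-voom gave 1 (0.362%, against 0.981% of all rows). The fit with no replicate block (no rat block) gave 3 (1.09%, against 1.70%, XLOC_000312, XLOC_009628 and XLOC_013648). Leaving out rats gave 0 to 1, with XLOC_031290 passing without SCM rat 3 (0.351%, against 0.896%). The cause of these changes was not tested.

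With the replicate number as a replicate block in the LV, 0 loci passed both limits and 1, XLOC_040827, passed the adjusted p-value (0.595%, against 2.25% of all rows). In the brain 0 passed, against 0.0937% of all rows. Same-numbered control and SCM rats are different animals, and the correlation of their deviations averaged 0.0112 in the LV and -0.0572 in the brain, so the numbers did not pair them. Over the 310 alternative values of the named loci, 0 reversed direction, 59 no longer passed the adjusted p-value and 1 newly passed it. Depth limits loci with few counts, since 75 loci had too few in both tissues to be taken as detected.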

Other observations

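Some of the loci have consecutive XLOC numbers. There were 15 pairs of neighbours in number, of which 10 had both members detected in at least 1 tissue. In 8 of the 10 both members had a brain share on the same side of 0.5. Of all detected single XLOC loci, 72.9% had a share above 0.5, so unrelated loci would often lie on the same side too. How often was not computed. The pair XLOC_031290 and XLOC_031291 had brain shares of 0.998 and 0.999, at mean brain levels of 50.8 and 6.52 CPM. The pair XLOC_039960 and XLOC_039961 had shares of 0.717 each. In XLOC_030233 and XLOC_030234, by contrast, the shares were 0.261 and 0.548. These pairs were chosen after their values were seen, and whether neighbours in number lie next to each other in the genome was not analysed here.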
